A study of Saccharomyces cerevisiae BY4741 with 24 samples.

Results

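The transcripts described here belong to the 10 Saccharomyces cerevisiae genes that carry glucose into glycogen and out of it again, GLG1, GLG2, GSY1, GSY2, GLC3, GPH1, GDB1, GAC1, PGM1 and PGM2. They were taken as a list of gene symbols for this pathway, drawn up with earlier results of these data known, and are 10 of the 5449 yeast genes tested on the arrays. Each was measured by 1 probe set, a set of short probes on the array that reports 1 transcript, and each lay above background in all 8 groups of arrays. That level is low, and 5396 of the 5449 genes had at least 1 group mean above it. Sequences of the genes, promoters and proteins were not used here.

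Glycogen is a branched polymer of glucose that yeast cells lay down as they approach the end of growth on glucose and draw on when outside carbon is scarce. A glycogenin protein starts the chain by adding glucose to itself, glycogen synthase lengthens it from UDP-glucose, and a branching enzyme moves short segments to make side chains. Glycogen phosphorylase and a debranching enzyme take the polymer apart, and phosphoglucomutase interconverts the glucose phosphates that lie on both routes. Glycogen synthase is switched on when the type 1 protein phosphatase Glc7, brought to it by targeting subunits such as Gac1, removes its phosphates, and several kinases put them back. RNA levels therefore describe only a part of how the pathway is set, and neither glycogen nor any enzyme activity was measured.

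The samples were batch cultures of BY4741, a haploid laboratory yeast of mating type a that carries deletions in HIS3, LEU2, MET17 and URA3, which every group shared. Cultures started at an OD600 of 0.2 in rich medium (YPD) with either 2% glucose, the control, or 0.5% glucose, called caloric restriction by the study, and were shaken at 200 rpm and 30 °C. They were harvested 12, 18, 24 and 48 h after inoculation, with 3 arrays for each of the 8 combinations and 24 arrays in all, described as biological triplicates. The study placed these times in the period when restriction gives the cells a longer chronological life span, which is survival without division. Cell density and the glucose left at harvest were not given in the sources used here, so the same clock time can be a different stage of growth at the 2 glucose levels. RNA came from whole cultures, so less RNA in every cell and fewer cells with the transcript cannot be told apart.

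Values are log2 expression levels as the authors deposited them, with the same overall distribution on every array, so each difference compares a transcript with the rest of the RNA in its culture. Levels of different genes were not compared, since probe sets differ in their response. The arrays also carry 1746 probe sets for Schizosaccharomyces pombe, and their 95th percentile, 2.29, was taken as background. As a check of the strain, all 5 genes specific to mating type a (MFA1, MFA2, STE2, STE6 and BAR1) were above background in all 8 groups. Of the genes deleted in the strain, MET17 and URA3 were above background in 0 groups, LEU2 in 1 and HIS3, of which the strain keeps a part, in 8. Of the genes of the other mating type, STE3 was above background in all 8 groups, with group means from 3.42 to 5.93. MF(ALPHA)1 was above it in 6 groups and MF(ALPHA)2 in 3. The meiosis and sporulation genes IME1, IME2, SPS4, SPR3 and SGA1 were above it in all 8 groups. Lying above background therefore does not identify the mating type or cell state here. Precision is limited by the number of arrays. Within the groups the SD of the 10 genes ran from 0.008 to 0.152 with a median of 0.049.

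A glucose effect below is the mean of the 3 arrays in 0.5% glucose minus that of the 3 arrays in 2% glucose. It is on the log2 scale and given with its SE from the limma fit to the arrays of all groups. That SE is the same for a gene at every time. A difference was called when its adjusted p in limma, corrected by Benjamini-Hochberg over all 5449 genes, was under 0.05. A call so defined is common in these data, and the share of all tested genes called is given where the 10 genes are first counted in a comparison.

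The 10 genes varied to different degrees. From the lowest to the highest of the 8 group means, GPH1 spanned 4.32 log2 units, GSY2 3.21, PGM2 3.06, PGM1 2.90 and GSY1 2.11. GDB1 spanned 1.40, GLG2 1.07, GAC1 0.85, GLG1 0.75 and GLC3 0.45. The median span was 1.75 over the 10 genes and 1.11 over all tested genes. For 7 of the 10, namely GSY1, GSY2, GLC3, GPH1, GDB1, PGM1 and PGM2, the lowest of the 8 means was that of the 0.5% cultures at 48 h, and for all of these but GLC3 its arrays lay apart from the group next above it. The highest mean was that of the 2% cultures at 12 h for GLG1, GLG2, GSY1, GSY2, GPH1 and GDB1. How many of all tested genes have such an order, or arrays apart in this way, was not counted. From 24 to 48 h in 0.5% glucose 39.4% of all tested genes were called lower and 45.8% higher.

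**Figure D1:**
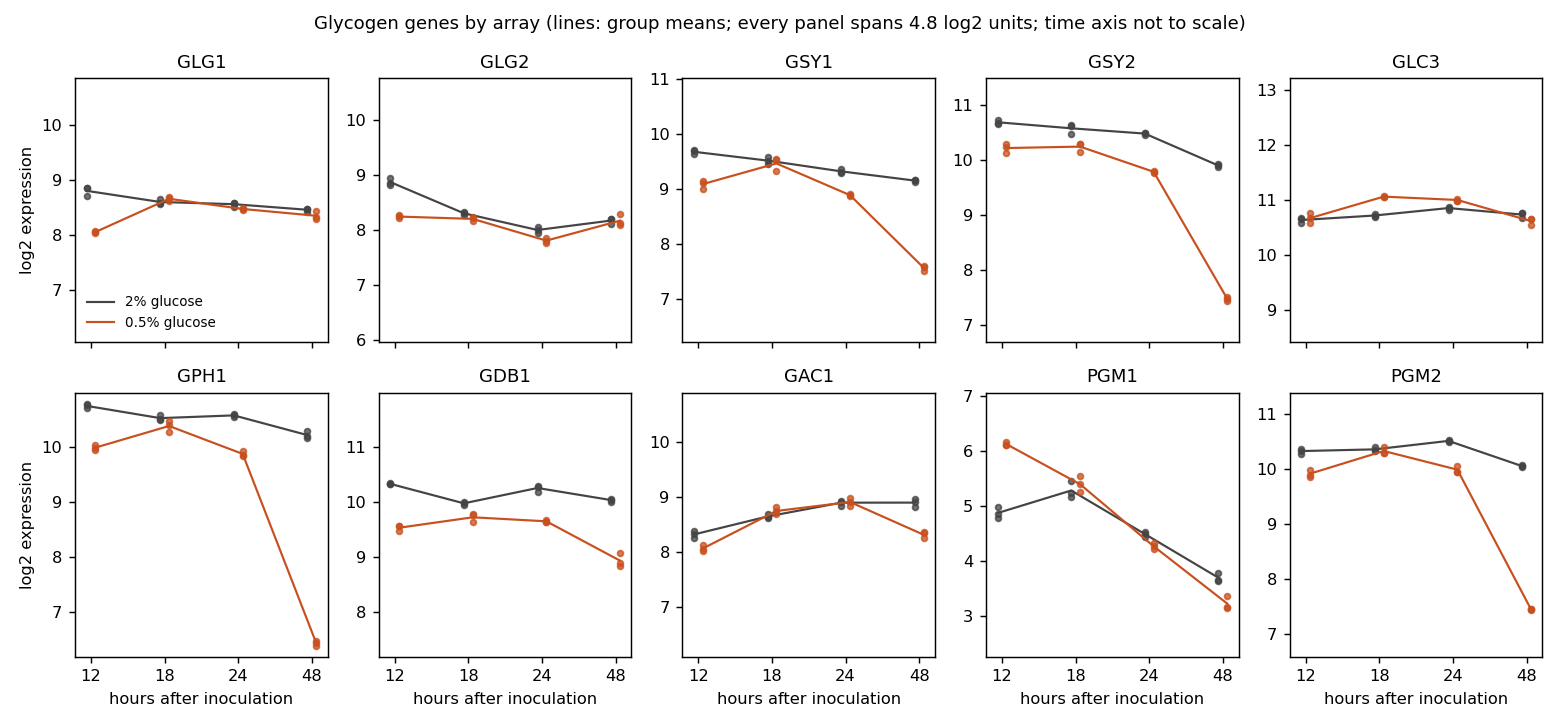
Log2 expression of the 10 glycogen genes (vertical axis) at 12, 18, 24 and 48 h (horizontal axis, not to scale) in 2% (grey) and 0.5% glucose (orange), with 1 point per array and lines through the means of 3 arrays. All panels span the same range of log2 units. GSY1, GSY2, GPH1 and PGM2 drop between 24 and 48 h in 0.5% glucose, with GPH1 reaching 6.43, and the 48 h arrays of PGM1 are its lowest at both glucose levels.

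The chain is started by the glycogenins GLG1 (YKR058W) and GLG2 (YJL137C). In 2% glucose GLG1 stood at 8.70, 8.85 and 8.86 on the 3 arrays at 12 h, and in 0.5% glucose it stood at 8.06, 8.04 and 8.06. By 18 h the arrays read 8.65, 8.56 and 8.59 in 2% and 8.61, 8.67 and 8.69 in 0.5% glucose. The groups were apart at 12 h, with all restricted arrays lower, and overlapped at 18 h. The effect was -0.75 ± 0.05 at 12 h (adjusted p = 6.63e-12), or 1.68-fold lower, and 0.06 ± 0.05 at 18 h (adjusted p = 0.326).

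At 24 h GLG1 read 8.59, 8.51 and 8.58 in 2% and 8.47, 8.50 and 8.45 in 0.5% glucose, and the effect of -0.09 ± 0.05 was not called (adjusted p = 0.118). At 48 h it read 8.48, 8.48 and 8.41 against 8.29, 8.32 and 8.44. The arrays overlapped at 48 h, and the effect of -0.11 ± 0.05 was called (adjusted p = 0.0409) but rests on single arrays. Without replicate 1 or 2 of the 2% cultures, or without replicate 1 or 2 of the 0.5% cultures, it was not called, with an adjusted p from 0.103 to 0.174. In the order of the 8 means, 2% at 12 h was highest and 0.5% at 12 h lowest, each apart from its neighbour, and the groups between them mostly overlapped with their neighbours.

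GLG2 had the same direction as GLG1 at 12 h, with 8.94, 8.81 and 8.86 in 2% and 8.21, 8.26 and 8.24 in 0.5% glucose. The groups were apart, and the effect was -0.63 ± 0.05 (adjusted p = 2.89e-10). In 2% glucose GLG2 then declined, to 8.33, 8.30 and 8.26 at 18 h and 8.05, 8.0 and 7.94 at 24 h. In 0.5% glucose it read 8.15, 8.22 and 8.21 at 18 h and 7.79, 7.85 and 7.77 at 24 h. The restricted arrays were lower at both times without overlap, and the effect was -0.10 ± 0.05 at 18 h (adjusted p = 0.0973) and -0.19 ± 0.05 at 24 h (adjusted p = 0.00213). At 48 h the levels were 8.11, 8.20 and 8.19 in 2% and 8.08, 8.12 and 8.28 in 0.5% glucose, which overlapped (effect -0.00 ± 0.05, adjusted p = 0.956).

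Glycogen synthase has a pair of genes, GSY1 (YFR015C) and GSY2 (YLR258W), the second of which encodes the main form of the enzyme. In 2% glucose GSY2 read 10.67, 10.65 and 10.72 at 12 h, 10.46, 10.61 and 10.64 at 18 h, 10.48, 10.48 and 10.45 at 24 h and 9.86, 9.90 and 9.91 at 48 h. In 0.5% glucose it read 10.12, 10.28 and 10.23 at 12 h, 10.14, 10.29 and 10.28 at 18 h, 9.79, 9.78 and 9.76 at 24 h and 7.46, 7.5 and 7.43 at 48 h. Every restricted array was below every control array of the same time, and the 3 restricted arrays at 48 h were the lowest of all 24. The effect was -0.47 ± 0.05 at 12 h (adjusted p = 3.22e-08), -0.33 ± 0.05 at 18 h (adjusted p = 1.39e-05), -0.69 ± 0.05 at 24 h (adjusted p = 1.29e-10) and -2.42 ± 0.05 at 48 h (adjusted p = 7.16e-21). At 48 h the level was thus 5.37-fold lower with restriction.

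GSY1 read 9.72, 9.69 and 9.64 in 2% glucose at 12 h, 9.46, 9.53 and 9.58 at 18 h, 9.32, 9.37 and 9.29 at 24 h and 9.18, 9.13 and 9.17 at 48 h. In 0.5% glucose the arrays read 9.01, 9.12 and 9.16 at 12 h, 9.33, 9.54 and 9.54 at 18 h, 8.89, 8.91 and 8.88 at 24 h and 7.51, 7.60 and 7.61 at 48 h. The groups overlapped at 18 h and were apart at the other times, always with the restricted arrays lower. The effect was -0.59 ± 0.05 at 12 h (adjusted p = 2.18e-09), -0.05 ± 0.05 at 18 h (adjusted p = 0.444), -0.43 ± 0.05 at 24 h (adjusted p = 4.2e-07) and -1.59 ± 0.05 at 48 h (adjusted p = 3.6e-17), the last being 3.0-fold.

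The branching enzyme GLC3 (YEL011W) was the least variable of the 10 genes and went the other way at the middle times. At 12 h it read 10.57, 10.65 and 10.66 in 2% and 10.57, 10.68 and 10.75 in 0.5% glucose, which overlapped (effect 0.03 ± 0.05, adjusted p = 0.513). At 18 h it read 10.70, 10.69 and 10.75 in 2% and 11.05, 11.07 and 11.05 in 0.5% glucose, and at 24 h 10.85, 10.88 and 10.82 against 10.99, 11.02 and 10.99. The restricted arrays were higher at both times without overlap, by 0.34 ± 0.05 at 18 h (adjusted p = 3.41e-06) and 0.15 ± 0.05 at 24 h (adjusted p = 0.00847). At 48 h the arrays read 10.76, 10.66 and 10.77 in 2% and 10.65, 10.54 and 10.65 in 0.5% glucose, an effect of -0.12 ± 0.05 (adjusted p = 0.0234). That call was lost without replicate 1 or 3 of the 2% cultures or replicate 2 of the 0.5% cultures (adjusted p from 0.0784 to 0.137).

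Glycogen phosphorylase, encoded by GPH1 (YPR160W), releases glucose 1-phosphate from the ends of the chains. In 2% glucose it read 10.78, 10.77 and 10.70 at 12 h, 10.59, 10.51 and 10.48 at 18 h, 10.55, 10.58 and 10.60 at 24 h and 10.16, 10.29 and 10.21 at 48 h. In 0.5% glucose it read 9.95, 9.98 and 10.04 at 12 h, 10.27, 10.41 and 10.47 at 18 h, 9.84, 9.93 and 9.86 at 24 h and 6.39, 6.43 and 6.48 at 48 h. The restricted arrays were below the controls at every time without overlap, narrowly at 18 h, and those at 48 h lay more than 3 log2 units under all other arrays. The effect was -0.76 ± 0.05 at 12 h (adjusted p = 1.19e-11), -0.14 ± 0.05 at 18 h (adjusted p = 0.0222), -0.70 ± 0.05 at 24 h (adjusted p = 1.09e-10) and -3.78 ± 0.05 at 48 h (adjusted p = 1.22e-23). The last is a 13.8-fold lower level, the largest glucose effect among the 10 genes at any of the 4 times. The small effect at 18 h was not called without replicate 1 of the 2% cultures (adjusted p = 0.11) or replicate 1 of the 0.5% cultures (adjusted p = 0.154).

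The debranching enzyme gene GDB1 (YPR184W), whose product removes the branch points that stop the phosphorylase, was lower with restriction at all 4 times. In 2% glucose it read 10.33, 10.32 and 10.32 at 12 h, 9.94, 9.98 and 9.99 at 18 h, 10.29, 10.27 and 10.19 at 24 h and 10.004, 10.03 and 10.05 at 48 h. In 0.5% glucose it read 9.46, 9.56 and 9.55 at 12 h, 9.62, 9.75 and 9.77 at 18 h, 9.67, 9.63 and 9.62 at 24 h and 8.83, 8.89 and 9.07 at 48 h. All 12 restricted arrays lay below all 12 control arrays, with no regard to time. The effect was -0.80 ± 0.05 at 12 h (adjusted p = 1.33e-11), -0.25 ± 0.05 at 18 h (adjusted p = 0.00047), -0.61 ± 0.05 at 24 h (adjusted p = 2.71e-09) and -1.10 ± 0.05 at 48 h (adjusted p = 1.96e-14), the last 2.14-fold.

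GAC1 (YOR178C) encodes the subunit that brings the phosphatase Glc7 to glycogen synthase. It read 8.37, 8.31 and 8.25 in 2% and 8.01, 8.04 and 8.12 in 0.5% glucose at 12 h, an effect of -0.26 ± 0.05 without overlap (adjusted p = 0.000133). At 18 h the arrays read 8.68, 8.62 and 8.62 against 8.81, 8.68 and 8.73, and at 24 h 8.91, 8.93 and 8.83 against 8.96, 8.90 and 8.83. Neither of these pairs of groups was apart, and the effects of 0.10 ± 0.05 (adjusted p = 0.108) and 0.01 ± 0.05 (adjusted p = 0.854) were not called. At 48 h it read 8.89, 8.82 and 8.96 in 2% and 8.35, 8.33 and 8.24 in 0.5% glucose, an effect of -0.58 ± 0.05 (adjusted p = 6.09e-10).

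Phosphoglucomutase has a minor form encoded by PGM1 (YKL127W) and a major form encoded by PGM2 (YMR105C), and the 2 genes moved in different ways. PGM1 read 4.97, 4.78 and 4.85 in 2% glucose at 12 h, 5.16, 5.23 and 5.45 at 18 h, 4.5, 4.44 and 4.54 at 24 h and 3.79, 3.64 and 3.65 at 48 h. In 0.5% glucose it read 6.10, 6.10 and 6.17 at 12 h, 5.25, 5.39 and 5.55 at 18 h, 4.22, 4.32 and 4.26 at 24 h and 3.15, 3.37 and 3.15 at 48 h. The restricted arrays were the highest of all at 12 h, overlapped with the controls at 18 h, and were lower at 24 and 48 h. The effect was 1.25 ± 0.08 at 12 h (adjusted p = 5.06e-12), a 2.38-fold higher level and the only member called higher at that time. It was 0.11 ± 0.08 at 18 h (adjusted p = 0.238), -0.22 ± 0.08 at 24 h (adjusted p = 0.0179) and -0.47 ± 0.08 at 48 h (adjusted p = 1.08e-05). The call at 24 h was lost without replicate 3 of the 2% cultures (adjusted p = 0.0608) or replicate 1 of the 0.5% cultures (adjusted p = 0.0633).

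PGM2 read 10.38, 10.34 and 10.29 in 2% glucose at 12 h, 10.41, 10.33 and 10.35 at 18 h, 10.54, 10.52 and 10.49 at 24 h and 10.04, 10.06 and 10.08 at 48 h. In 0.5% glucose it read 9.87, 9.90 and 9.997 at 12 h, 10.29, 10.30 and 10.40 at 18 h, 9.96, 10.07 and 9.96 at 24 h and 7.44, 7.46 and 7.47 at 48 h. The restricted arrays were lower without overlap at 12, 24 and 48 h and overlapped at 18 h. The effect was -0.41 ± 0.04 at 12 h (adjusted p = 3.11e-08), -0.03 ± 0.04 at 18 h (adjusted p = 0.605), -0.52 ± 0.04 at 24 h (adjusted p = 1.5e-09) and -2.60 ± 0.04 at 48 h (adjusted p = 3.21e-22), the last a 6.08-fold lower level.

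Counted by time, restriction lowered 8 of the 10 genes at 12 h and raised 1, with a median effect of -0.53 against -0.05 over all tested genes. Of all tested genes 41.2% were called lower and 32.2% higher at that time. At 18 h 3 of the 10 genes were lower (GSY2, GPH1 and GDB1) and 1 was higher (GLC3), near the 24.8% lower and 25.5% higher among all tested genes. At 24 h 7 were lower and 1 higher, where 31.4% of all tested genes were lower and 31.6% higher, with a median of -0.33 against 0.00. At 48 h 9 were lower and 0 higher, where 37.8% of all tested genes were lower and 46% higher, with a median of -0.84 against 0.08. GLG2 was the 1 gene not called at 48 h, and GSY1, GSY2, GPH1, GDB1 and PGM2 were lower by at least 2-fold, as were 10.6% of all tested genes.

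**Figure D2:**
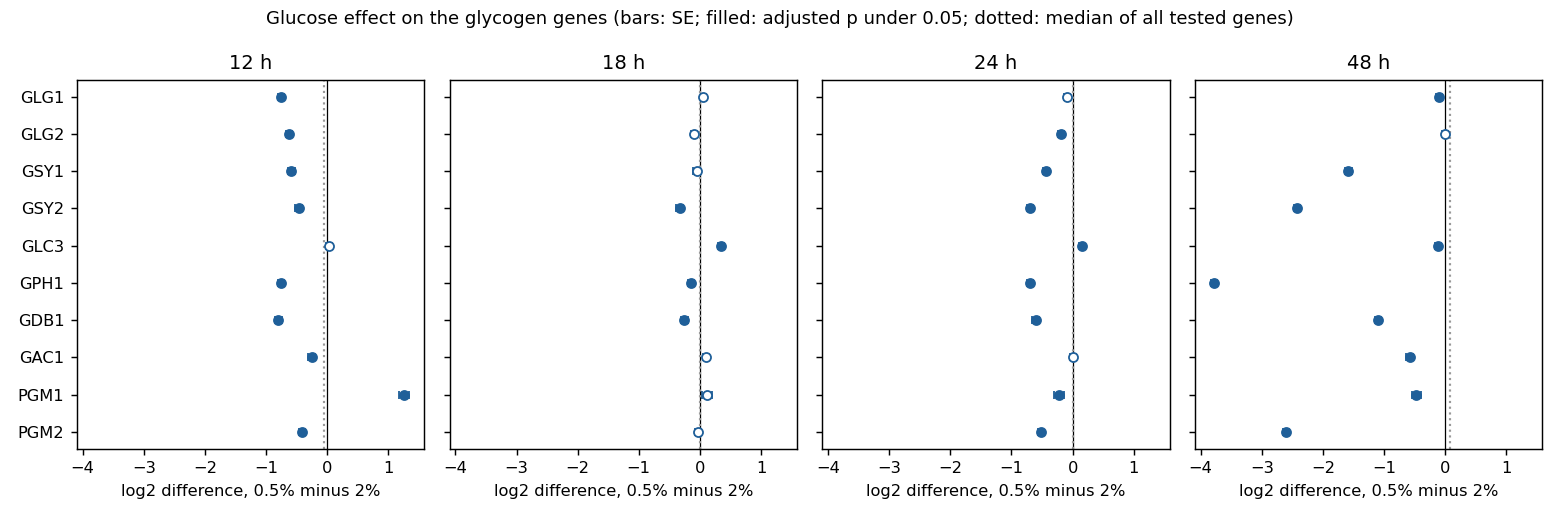
Glucose effect on each of the 10 genes, as the log2 difference of 0.5% minus 2% glucose (horizontal axis) at each harvest time. Each group has 3 arrays. Bars are the SE from the limma fit to the arrays of all groups, so a gene has the same SE at every time. Filled points have an adjusted p under 0.05, and the dotted line is the median of all tested genes. PGM1 lies to the right of 0 at 12 h, most genes lie near 0 at 18 h, and GPH1, PGM2, GSY2 and GSY1 lie far to the left at 48 h.

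The direction at the earlier times depends on the scale. The arrays hold probe sets for poly-A spike-ins, bacterial control RNAs meant to be added before labelling. Shifting the groups so that the 12 spike-in probe sets were level moved the median of all tested genes to 0.35, 0.16, 0.27 and -0.41 at 12, 18, 24 and 48 h. On that scale, taken from group means, 5 genes were lower and 3 higher at 12 h, 1 lower and 5 higher at 18 h, 5 lower and 3 higher at 24 h, and 10 lower and 0 higher at 48 h. Of all tested genes 11.6% were lower and 69.3% higher at 12 h on that scale, 10.6% and 51.4% at 18 h, 12.4% and 64.2% at 24 h, and 65.4% and 19.4% at 48 h. The sign of GAC1 turned at 12 h, those of GPH1, GSY1, GLG2 and PGM2 at 18 h, and those of GLG1, GLG2 and PGM1 at 24 h. With the spike-ins of each array as the scale, which brings in their own spread, 1 gene was higher and 0 lower at 12 h. On it 0 genes were called at 18 h and 0 at 24 h, and 10 were lower and 0 higher at 48 h. Of all tested genes 3.58% were lower and 36.1% higher at 12 h on this scale, 1.08% and 3.43% at 18 h, 2.75% and 19.5% at 24 h, and 45.8% and 9.47% at 48 h. Relative to the median of all tested genes, the effects are the same on each of these scales.

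The 48 h cultures in 0.5% glucose also stood apart in a measure of RNA quality. The 3′ probe set of the actin gene ACT1 exceeded its 5′ probe set by 1.52 ± 0.07 log2 units in these cultures (SD, n = 3), and by 0.66 to 0.85 in the other 7 groups. For SPT15 the same difference was 1.76 in this group and 1.35 to 1.70 in the others, and for SRB4 it was 2.85, within the 2.72 to 3.05 of the others. The part of RNA quality in the levels at 48 h was not tested.

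Change over time was next described within each glucose level, as the later minus the earlier harvest. In 2% glucose the steps were small, and none of the 10 genes changed by 2-fold in any step. From 12 to 18 h 5 genes fell and 2 rose, where 37.9% of all tested genes fell and 30.5% rose. The falls were those of GLG1, GLG2, GSY1, GPH1 and GDB1, from -0.16 ± 0.05 for GSY1 to -0.57 ± 0.05 for GLG2 (adjusted p = 2.01e-09), and GAC1 and PGM1 rose by 0.33 ± 0.05 and 0.41 ± 0.08. On the group spike-in scale 4 genes fell and 3 rose, with 32.3% and 35.7% of all tested genes, and the spike-ins shifted by -0.052 ± 0.18 (SE). Without replicate 1 of the 18 h cultures the fall of GSY1 was not called (adjusted p = 0.0608). GSY2, at -0.11 ± 0.05, had an adjusted p of 0.0589, which became 0.0381 when the replicate number was a block and 0.0277 without replicate 3 of the 18 h cultures.

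From 18 to 24 h in 2% glucose 3 genes fell (GLG2, GSY1 and PGM1) and 4 rose (GLC3, GDB1, GAC1 and PGM2), where 24.5% of all tested genes fell and 25.2% rose. PGM1 had the largest step, -0.79 ± 0.08 (adjusted p = 6.04e-08). The rise of GLC3 was lost without replicate 1 or 2 of the 18 h cultures or replicate 1 or 2 of the 24 h cultures (adjusted p from 0.0508 to 0.0705), and GSY2 would be called lower without replicate 1 of the 18 h cultures (adjusted p = 0.0237). On the group spike-in scale 8 genes fell and 0 rose in this step, as did 67.7% and 6.02% of all tested genes. With the spike-ins of each array 1 fell and 0 rose, with 8.64% and 0.606% of all tested genes. The spike-ins shifted by 0.259 ± 0.252 (SE) in this step, about the size of the error. From 24 to 48 h 7 genes fell and 1, GLG2, rose, where 30.4% of all tested genes fell and 31.5% rose. PGM1 changed by -0.80 ± 0.08, GSY2 by -0.58 ± 0.05, PGM2 by -0.46 ± 0.04 and GPH1 by -0.36 ± 0.05. On the group spike-in scale 4 fell and 2 rose, with 19.5% and 47.3% of all tested genes, and the spike-ins shifted by -0.124 ± 0.22 (SE). The fall of GLC3 in this step was lost without replicate 1 or 2 of the 24 h cultures or replicate 2 of the 48 h cultures (adjusted p from 0.0686 to 0.155).

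In 0.5% glucose the first step ran the other way. From 12 to 18 h 7 of the 10 genes rose and 1 fell, where 30% of all tested genes rose and 30.2% fell. GAC1 rose by 0.68 ± 0.05 (adjusted p = 4.7e-10), GLG1 by 0.60 ± 0.05, PGM2 by 0.41 ± 0.04, GPH1 by 0.39 ± 0.05, GLC3 by 0.39 ± 0.05, GSY1 by 0.38 ± 0.05 and GDB1 by 0.19 ± 0.05, while PGM1 fell, at -0.73 ± 0.08. On the group spike-in scale 6 rose and 3 fell, with 12.0% and 54.7% of all tested genes, and from 18 to 24 h 9 fell and 0 rose, with 48.1% and 9.45%. The spike-ins shifted by 0.189 ± 0.225 (SE) from 12 to 18 h and 0.152 ± 0.245 from 18 to 24 h. From 18 to 24 h 7 fell and 1, GAC1, rose, where 24.1% of all tested genes fell and 24.6% rose. PGM1 fell most, at -1.13 ± 0.08 (adjusted p = 6.62e-10), followed by GSY1 at -0.58 ± 0.05, GPH1 at -0.51 ± 0.05 and GSY2 at -0.46 ± 0.05. The rise of GAC1, 0.16 ± 0.05, was lost without replicate 2 of the 18 h or replicate 1 of the 24 h cultures (adjusted p from 0.0698 to 0.0708).

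From 24 to 48 h in 0.5% glucose 9 of the 10 genes fell and 1 rose, where 39.4% of all tested genes fell and 45.8% rose. The fall was at least 2-fold for 5 genes, against 13% of all tested genes. GPH1 changed by -3.44 ± 0.05, which is 10.9-fold (adjusted p = 2.8e-23), PGM2 by -2.54 ± 0.04, GSY2 by -2.31 ± 0.05, GSY1 by -1.32 ± 0.05 and PGM1 by -1.04 ± 0.08. GLG2 rose by 0.36 ± 0.05 (adjusted p = 7.68e-07), and on the group spike-in scale its sign turned and all 10 genes fell, with 70.9% of all tested genes. The fall of GLG1 in this step, -0.12 ± 0.05, was lost without replicate 2 of the 24 h cultures or replicate 1 or 2 of the 48 h cultures (adjusted p from 0.0684 to 0.105).

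Whether the glucose effect itself differed between times was tested as the interaction of glucose level and time. All 10 genes were called in the F test over the 4 times, with adjusted p from 9.68e-06 for GLC3 to 2.97e-20 for GPH1, and so were 91.7% of all tested genes. With the 48 h arrays left out, a choice made after seeing the data, all 10 were still called, with adjusted p from 1.41e-08 for PGM1 to 0.00175 for GSY2, and so were 70.7% of all tested genes. From 12 to 18 h the effect moved up for 8 genes and down for 1, PGM1, by -1.14 ± 0.11, where 57% of all tested genes had a called change in either direction. GSY2 was the gene not called (adjusted p = 0.111), and it would be called without replicate 1 of the 0.5% cultures at 18 h (adjusted p = 0.0291). From 18 to 24 h the effect moved down for 7 genes and up for 0, where 27.9% of all tested genes changed either way.

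Of these 7 changes, that of GLC3, -0.20 ± 0.07, was lost when any 1 of 7 arrays was left out, with adjusted p from 0.0553 to 0.0689. These were replicate 1 or 2 of the 2% cultures at 18 or 24 h, replicate 2 of the 0.5% cultures at 18 h, and replicate 1 or 3 of the 0.5% cultures at 24 h. The change of PGM1, -0.34 ± 0.11, was lost when any 1 of 6 arrays was left out, with adjusted p from 0.0506 to 0.0933. These were replicate 1 or 2 of the 2% cultures at 18 h, replicate 1 or 3 of them at 24 h, replicate 3 of the 0.5% cultures at 18 h, and replicate 1 of them at 24 h. From 24 to 48 h the effect moved down for 8 genes and up for 1, GLG2, where 74.7% of all tested genes changed either way. The change was -3.08 ± 0.07 for GPH1 (adjusted p = 4.13e-19), -2.08 ± 0.06 for PGM2, -1.73 ± 0.07 for GSY2 and -1.15 ± 0.08 for GSY1. The change of GLG2 (adjusted p = 0.0205) was lost without replicate 1 of the 2% cultures at 24 or 48 h or replicate 3 of the 0.5% cultures at 48 h, with adjusted p up to 0.0773. That of PGM1 (adjusted p = 0.0499) was lost with the replicate number as a block (adjusted p = 0.0507) and without any 1 of 8 arrays, with adjusted p up to 0.13. These were, in 2% glucose, replicate 1 or 2 at 24 h and replicate 1 or 3 at 48 h and, in 0.5% glucose, replicate 2 or 3 at 24 h and replicate 1 or 3 at 48 h. On the group spike-in scale 5 effects moved up and 1 down from 12 to 18 h, 5 down and 0 up from 18 to 24 h, and 10 down and 0 up from 24 to 48 h. The share of all tested genes with such changes was not counted on that scale. There the median effect of all tested genes itself went from 0.35 at 12 h to 0.16 at 18 h, 0.27 at 24 h and -0.41 at 48 h. These counts are therefore not read as a result about the 10 genes.

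The 3 pairs of duplicated genes were compared through the difference of their log2 values within each array, which removes any scale common to the array. Its size has no meaning across probe sets, and only its change between groups was read. GSY2 minus GSY1 stood at 0.95, 0.96 and 1.08 in 2% and 1.11, 1.16 and 1.08 in 0.5% glucose at 12 h, and at 0.68, 0.76 and 0.75 against -0.05, -0.09 and -0.18 at 48 h. The groups overlapped at 12 h and were apart at 18, 24 and 48 h. Between glucose levels it differed by 0.12, -0.28, -0.26 and -0.84 at 12, 18, 24 and 48 h. Averaged over the times it was -0.32, with an adjusted p of 0.00174 in an exact two-sided permutation test over all 160000 relabellings of glucose level within times, corrected over the 3 pairs. Over the times together GSY2 was thus lower relative to GSY1, though at 12 h the difference had the other sign, and with the 12, 18 and 24 h arrays only the mean was -0.14 (exact permutation test, adjusted p = 0.0349).

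PGM2 minus PGM1 changed most of the 3 pairs. It stood at 5.40, 5.55 and 5.44 in 2% and 3.77, 3.8 and 3.83 in 0.5% glucose at 12 h, and at 6.25, 6.42 and 6.43 against 4.29, 4.09 and 4.32 at 48 h. At 18 h it stood at 5.25, 5.10 and 4.91 against 5.05, 4.92 and 4.86, which overlapped. Between glucose levels it differed by -1.66, -0.14, -0.30 and -2.13 at the 4 times, and the mean of -1.06 had an adjusted p of 0.000112 in the exact permutation test. With the 48 h arrays left out the mean was -0.70 (exact permutation test, adjusted p = 0.00225). At 12 h this came from a higher PGM1 beside a lower PGM2, and at 48 h from a larger fall of PGM2. At 48 h PGM1 was at its nearest to the background of 2.29, with means of 3.69 in 2% and 3.22 in 0.5% glucose. Whether so low a level limited the fall of PGM1, and so the size of the ratio, was not tested.

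For the glycogenins the mean over the 4 times was not called, and its parts had opposite signs. GLG2 minus GLG1 stood at 0.24, -0.05 and 0.003 in 2% and 0.15, 0.22 and 0.19 in 0.5% glucose at 12 h, which overlapped. At 18 h it stood at -0.32, -0.26 and -0.33 against -0.46, -0.44 and -0.48, and at 48 h at -0.37, -0.28 and -0.22 against -0.20, -0.20 and -0.16. The arrays were apart at 18, 24 and 48 h, with restricted cultures lower at 18 and 24 h and higher at 48 h. It differed between glucose levels by 0.12, -0.16, -0.11 and 0.11 at 12, 18, 24 and 48 h. The mean was -0.01, with an adjusted p of 0.793 in the exact permutation test. The differences at single times were not tested.

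**Figure D3:**
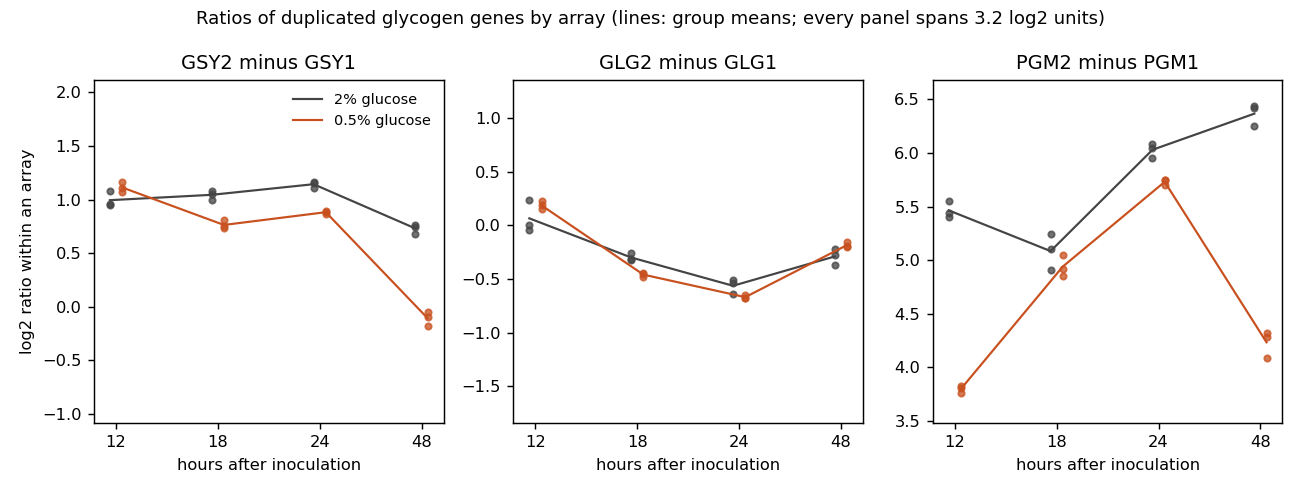
Difference of the log2 values of 2 duplicated genes within an array (vertical axis) at 12, 18, 24 and 48 h (horizontal axis, not to scale) in 2% (grey) and 0.5% glucose (orange), with 1 point per array and lines through the means of 3 arrays. The glucose levels lie apart for PGM2 minus PGM1 at 12, 24 and 48 h and for GSY2 minus GSY1 and GLG2 minus GLG1 at 18, 24 and 48 h, by most for PGM2 minus PGM1 at 48 h (-2.13).

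Likeness among the 10 genes was described by Pearson's r over the 8 group means, points that share arrays and normalization, with no test. GPH1 and PGM2 had an r of 0.995, GSY2 and GPH1 0.987, GSY1 and GSY2 0.982 and GPH1 and GDB1 0.874. Since the 0.5% group at 48 h lies far from the others, r was also taken over the other 7 groups, where these pairs had 0.878, 0.871, 0.876 and 0.849. GLC3 had an r between -0.46 and 0.17 over these 7 groups with all other genes but GLG2, at -0.65, and GAC1, at 0.63. PGM1 and PGM2 went from 0.596 over 8 groups to -0.04 over 7.

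Among the 4915 other named genes with a group mean above background, the closest pattern to GPH1 was that of SSA1, for a cytosolic Hsp70 chaperone, with an r of 0.996 over 8 groups and 0.922 over 7. The closest to GSY2 was SAC6, for the actin bundling protein fimbrin, with 0.996 and 0.983. The closest to PGM2 was MYO3, for a type I myosin, with 0.997 and 0.944, and SSA1 was next with 0.995 and 0.881. GYP6 was closest to GSY1, with 0.994 and 0.968, and STE6, for the exporter of a-factor, was closest to GDB1, with 0.984 and 0.975. PGM1 was closest to CLB4, for a B-type cyclin, with 0.990 and 0.989, then to SWI6 and CLB2. For GLG1 the closest gene was TCB1 with 0.926, for GLG2 YPQ2 with 0.957, for GAC1 PIR3 with 0.965 and for GLC3 PBP1 with 0.905, all over 8 groups.

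A further 22 genes of glycogen metabolism, a list also drawn up with earlier results of these data known, supply its substrates or act on its enzymes. Of these 13 were lower and 2 higher at 12 h, 8 lower and 6 higher at 18 h, 9 lower and 7 higher at 24 h, and 12 lower and 7 higher at 48 h. Their median effect was -0.31, -0.04, -0.03 and -0.23 at the 4 times. The shares of all tested genes, as above, were 41.2% lower and 32.2% higher at 12 h, and 37.8% lower and 46% higher at 48 h. At 18 h, with 24.8% lower and 25.5% higher, and at 24 h, with 31.4% and 31.6%, the 22 genes were near these shares. In the interaction F test 21 of the 22 were called, near the 91.7% of all tested genes. The exception was GLC7, for the phosphatase itself (adjusted p = 0.247).

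Among the 5 genes listed under substrate supply, all 5 were lower at 48 h. UGP1, whose product makes the UDP-glucose that glycogen synthase uses, read 10.35, 10.33 and 10.37 in 2% and 8.24, 8.33 and 8.28 in 0.5% glucose at 48 h, an effect of -2.06 ± 0.05 (adjusted p = 8.11e-20). Its effect was -0.04 ± 0.05 at 12 h and -0.02 ± 0.05 at 18 h, neither called, and -0.50 ± 0.05 at 24 h. The hexokinase gene HXK2 went from 1.25 ± 0.07 at 12 h to -3.91 ± 0.07 at 48 h, when it read 9.12, 9.05 and 9.05 in 2% and 5.20, 5.23 and 5.07 in 0.5% glucose. Like PGM1 it was called higher at 12 h and lower at 24 and 48 h, but unlike PGM1 it was also called lower at 18 h, at -0.34 ± 0.07. HXK1, for the other hexokinase, was lower at all 4 times, by -1.12 ± 0.05 at 12 h and -2.25 ± 0.05 at 48 h. The glucokinase gene GLK1 was called lower at 12 and 48 h, by -0.26 ± 0.05 and -0.50 ± 0.05, and PRM15, listed here under its other name PGM3, at 48 h only, by -0.30 ± 0.05.

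The 8 genes of the phosphatase and its partners were split at 48 h, with 3 higher and 3 lower. GIP2 and PIG2, for subunits related in function to Gac1, had effects of -0.89 ± 0.07 and -0.78 ± 0.05 at 12 h. GIP2 was then higher with restriction at 18, 24 and 48 h, by 0.52 ± 0.07, 0.46 ± 0.07 and 0.54 ± 0.07, while PIG2 was not called at these times. PIG1, for another such subunit, was 0.33 ± 0.06 at 24 h and -1.17 ± 0.06 at 48 h. SDS22, for a regulator of Glc7, was lower at all 4 times and by -1.66 ± 0.07 at 48 h, YPI1 was -0.76 ± 0.07 at 48 h, and REG1, for the subunit used in glucose repression, was 0.998 ± 0.10 at 48 h. GLC8, for an activator of Glc7, was lower at 12, 18 and 24 h and higher at 48 h, by 0.54 ± 0.07.

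Of the 8 genes for kinases of glycogen synthase or its regulators and for their cyclins, PCL6, PCL8, PSK1 and PSK2 were called lower at some times and higher at others. PHO85, for a cyclin-dependent kinase of glycogen synthase, was lower at all 4 times, from -0.62 ± 0.04 at 12 h to -0.10 ± 0.04 at 24 h and -0.46 ± 0.04 at 48 h. Of the genes for its cyclins that direct it to glycogen synthase, PCL8 was -0.19 ± 0.05 at 12 h and higher at the later times, up to 0.52 ± 0.05 at 24 h, and PCL10 was lower at 12 and 18 h and not called later. PCL6 and PCL7 encode related cyclins, and PCL6 was 0.36 ± 0.05 at 24 h and -0.30 ± 0.05 at 48 h, while PCL7 was lower at 12, 24 and 48 h, by -0.40 ± 0.06 at 12 h. PSK1 and PSK2, for PAS domain kinases that act on Ugp1 and glycogen synthase, were lower at 12 h, by -0.64 ± 0.06 and -0.77 ± 0.06, and higher at 48 h, by 0.85 ± 0.06 and 1.93 ± 0.06. PSK2 read 6.57, 6.74 and 6.72 in 2% and 8.71, 8.54 and 8.58 in 0.5% glucose at 48 h, which were far apart. SNF1, for the energy-sensing kinase that glycogen storage requires, was 0.64 ± 0.04 at 48 h. SGA1, for a glucoamylase of sporulating cells, was lower at all 4 times, by -0.93 ± 0.09 at 12 h and -1.12 ± 0.09 at 48 h, in these haploid cultures where its level was above background in all 8 groups.

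**Figure D4:**
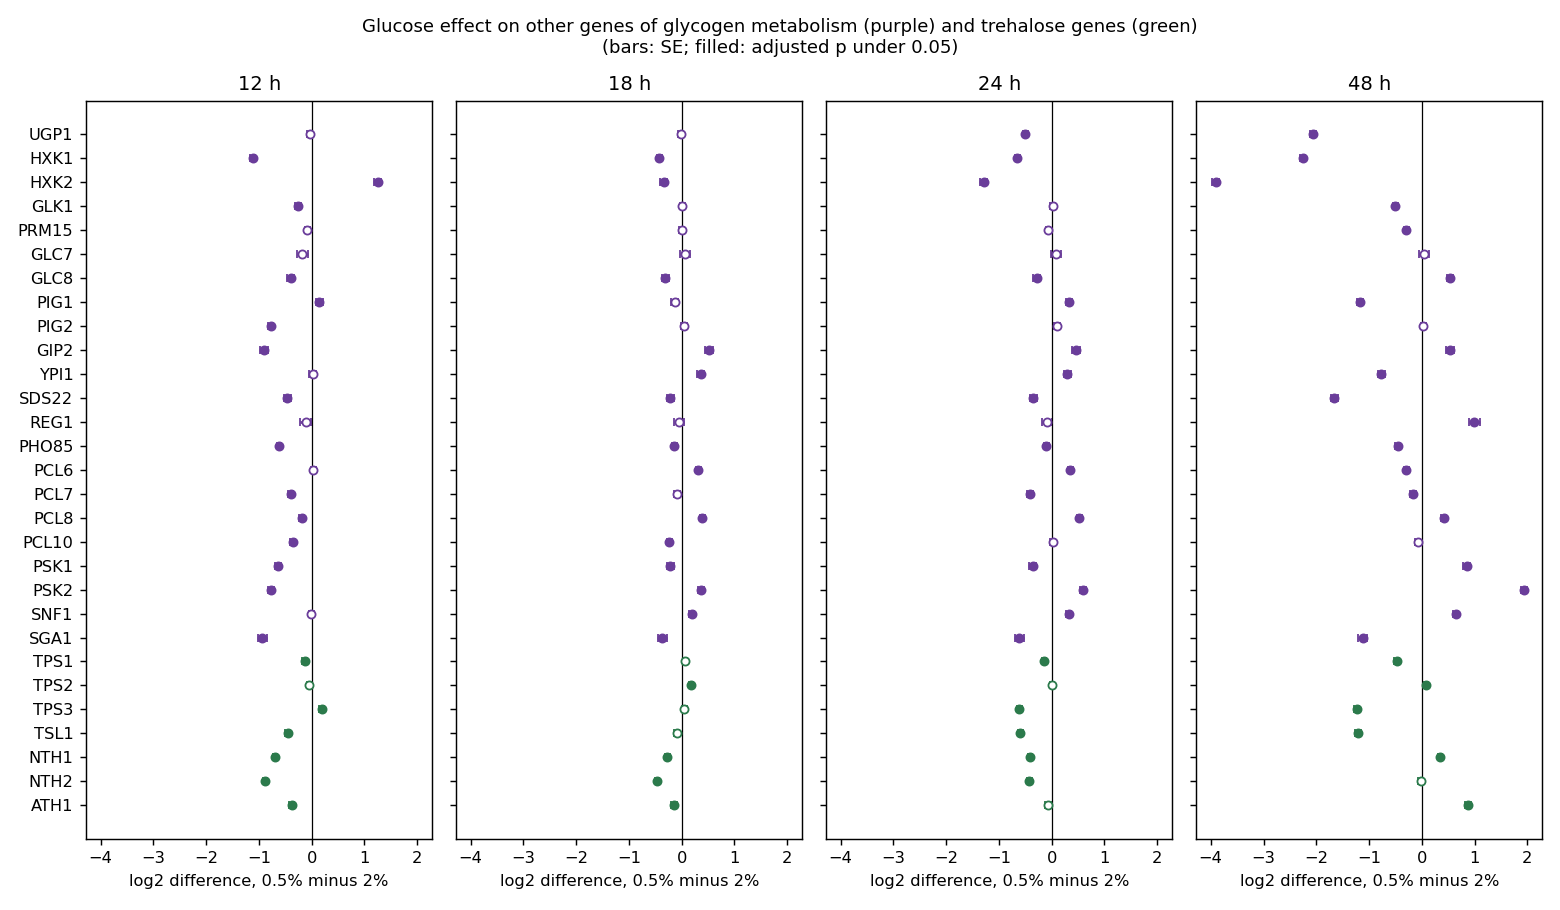
Glucose effect, as the log2 difference of 0.5% minus 2% glucose (horizontal axis), at each harvest time. The genes are 22 others of glycogen metabolism (purple) and 7 of trehalose metabolism (green), with 3 arrays per group. Bars are the SE from the limma fit to the arrays of all groups, so a gene has the same SE at every time. Filled points have an adjusted p under 0.05. At 48 h HXK2, HXK1, UGP1 and SDS22 lie farthest to the left, and PSK2 at 1.93 lies farthest to the right.

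Trehalose, a disaccharide, is the other storage carbohydrate of yeast and is made from the same UDP-glucose. At 48 h 3 of its 7 genes were lower and 3 higher, near the 37.8% lower and 46% higher of all tested genes. The difference from the glycogen genes was not tested. The lower ones encode subunits of the trehalose synthase complex, TPS3 at -1.23 ± 0.05, TSL1 at -1.21 ± 0.05 and TPS1 at -0.48 ± 0.04. The higher ones were ATH1 and NTH1, for enzymes that break trehalose down, at 0.88 ± 0.05 and 0.35 ± 0.04, and TPS2, for another subunit of the synthase complex, at 0.09 ± 0.04. The breakdown genes of glycogen, GPH1 and GDB1, were lower at this time, at -3.78 ± 0.05 and -1.10 ± 0.05. At 12 h 5 of the 7 trehalose genes were lower, NTH2 at -0.88 ± 0.05 and NTH1 at -0.69 ± 0.04 among them, and 1 was higher. Of all tested genes 41.2% were lower and 32.2% higher at 12 h. At 18 h 3 trehalose genes were lower and 1 higher, with 24.8% and 25.5% of all tested genes. At 24 h 5 were lower and 0 higher, with 31.4% and 31.6% of all tested genes. Their median effect at 24 h was -0.41, beside -0.33 for the 10 glycogen genes.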

How the data were processed

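RNA from 24 cultures was measured on Affymetrix Yeast Genome 2.0 arrays, with biotin-labelled cRNA made from 250 ng of total RNA, per the labels. The values are on a log2 scale as deposited by the authors. The log scale and quantile normalization were inferred from the values, which ran from 0.598 to 12.6 and whose sorted columns differed by at most 0.0095. The submitters' processing notes name Partek. How background was corrected and probes were summarised is not stated there.

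The 5498 probe sets of 1 yeast gene gave 5449 genes. For the 47 genes with several, the probe set with the highest mean was used. The deposited values were not changed. In R 4.3.3, limma 3.58.1 fitted a mean per group to all 24 arrays, with moderated statistics and Benjamini-Hochberg adjustment over all genes, and the fit was tested on simulated data. The pairs of duplicated genes were tested by exact permutation in python 3.11.15 with numpy 2.4.6 and pandas 2.3.3, and figures were drawn with matplotlib 3.10.9. The nearest pattern was the highest correlation over the 8 group means among genes above background. The 10 genes were named in full, as were the other listed genes that passed in a glucose comparison. The members and lists were chosen with earlier results of these data known.

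Replicate numbers were checked as pairs by the correlation of residuals of same-numbered arrays. All 3 correlations exceeded 0.1 for the glucose comparisons at 12, 18 and 24 h, from 0.109 to 0.368, and for the step from 12 to 18 h in 2% glucose. At 48 h the lowest was 0.072, and the other steps also held a pair at or under 0.1. The block was therefore an alternative. Other alternatives were further normalizations, filters, variance models, spike-in scales and leaving out each array.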

Additional observations from a re-analysis of the deposited data

Results flagged for a closer look

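The glucose effect differed between the 4 harvest times for all 10 genes, by the limma F test of the interaction, as it did for 91.7% of all tested genes. The adjusted p was 1.11e-09 for GLG1, 1.87e-07 for GLG2, 3.07e-13 for GSY1, 1.61e-16 for GSY2, 9.68e-06 for GLC3, 2.97e-20 for GPH1, 7.76e-09 for GDB1, 4.37e-08 for GAC1, 1.56e-11 for PGM1 and 1.12e-18 for PGM2. For PGM1 the effect turned from 1.25 ± 0.08 at 12 h to -0.47 ± 0.08 at 48 h, and for GLC3 from 0.34 ± 0.05 at 18 h to -0.12 ± 0.05 at 48 h. For GSY1, GSY2, GPH1, GDB1 and PGM2 it was called lower at 12, 24 and 48 h, with the largest estimate at 48 h. At 18 h it was called for GSY2, GPH1 and GDB1 but not for GSY1 (-0.05 ± 0.05) or PGM2 (-0.03 ± 0.04). The signs of GSY1, GPH1 and PGM2 at 18 h turned on the spike-in scale, where the spike-ins shifted by -0.16 ± 0.264 (SE).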

How the results depend on the processing

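The limits are the 3 arrays per group, the unknown growth stage at each harvest, the quantile normalization, and small effects near the threshold. Recomputed counts of called genes were taken without regard to direction, so a turn of direction does not show in them. At 18 h 3 genes lower and 1 higher became 1 lower and 5 higher on the group spike-in scale, which still met the limit of 1.5 times used here. Of 260 such counts 250 stayed within 1.5 times the reported count. The 10 others all came from the spike-ins of each array as scale, where 1, 0 and 0 genes were called for the glucose effect at 12, 18 and 24 h, 0, 1 and 1 for the 3 steps in 2% glucose, 1 and 3 for the steps from 12 to 18 and 18 to 24 h in 0.5% glucose, and 1 and 0 for the changes of effect from 12 to 18 and 18 to 24 h. That scale adds the spread of the spike-ins to each array. At 18 h 1.08% of all tested genes were called lower and 3.43% higher on it, against 24.8% and 25.5% on the deposited scale. The shares were 3.58% lower and 36.1% higher at 12 h, and 2.75% and 19.5% at 24 h. In 2% glucose 8.63% fell and 12.1% rose from 12 to 18 h, and 8.64% and 0.606% from 18 to 24 h. From 24 to 48 h these were 3.1% and 8.57%. In 0.5% glucose 12.5% fell and 2.11% rose from 12 to 18 h, and 4.42% and 0.881% from 18 to 24 h. For the changes of effect the share was not counted on this scale. Of 2600 recomputed values of single genes 2388 kept their direction and side of the threshold, 131 lost and 24 gained a call, and 57 changed sign. Both spike-in scales gave these turned signs. For the glucose effect they were GAC1 at 0.146 at 12 h, GLG2 at 0.0583, GSY1 at 0.1088, GPH1 at 0.0172 and PGM2 at 0.1306 at 18 h, and GLG1 at 0.1795, GLG2 at 0.0731 and PGM1 at 0.0439 at 24 h. In 2% glucose they were GLC3 at -0.124, GPH1 at -0.2094, GAC1 at -0.0077 and PGM2 at -0.1047 from 18 to 24 h, and GLG1 at 0.0215 and GLC3 at 0.005 from 24 to 48 h. In 0.5% glucose they were GSY2 at -0.1636 from 12 to 18 h and GLG2 at -0.2704 from 24 to 48 h. For the change of effect they were GSY2 at -0.1058 from 12 to 18 h, GLG2 at 0.0148 and GAC1 at 0.0176 from 18 to 24 h, and GLG2 at -0.5662 from 24 to 48 h. With array weights GAC1 turned to -0.0044 for the effect at 24 h and -0.0071 for the step from 24 to 48 h in 2% glucose. The spike-in scales and the omission of the 48 h arrays are described with the results.

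Leaving out 1 array turned signs of effects that were not called, and the ranges were -0.0078 to 0.0819 for GLC3 at 12 h, -0.0873 to 0.019 for GSY1 at 18 h, -0.02 to 0.0464 for GAC1 at 24 h, -0.0632 to 0.0373 for GLG2 at 48 h, -0.0325 to 0.036 for GAC1 from 24 to 48 h in 2% glucose, -0.0198 to 0.075 for GSY2 from 12 to 18 h in 0.5% glucose, -0.0669 to 0.01 for the change of GLG1 from 24 to 48 h, and -0.0239 to 0.0116 for GLG2 minus GLG1. With the replicate block GSY2 was called from 12 to 18 h in 2% glucose (adjusted p = 0.0381) and the change of PGM1 from 24 to 48 h was not (adjusted p = 0.0507). The block changed no other call among the 10 genes. With only the arrays compared, 4 calls were lost, the effects of GPH1 at 18 h (adjusted p = 0.0913) and of GLG1 (0.0904) and GLC3 (0.0657) at 48 h and the step of GLG1 from 24 to 48 h in 0.5% glucose (0.0576). Array weights lost GPH1 at 18 h (0.0652) and the change of PGM1 from 24 to 48 h (0.0817), which the variance trend with robust moderation (0.072) and repeated quantile normalization (0.0719) also lost. Gained calls were GSY2 from 12 to 18 h in 2% glucose with the variance trend (0.0387) and, with array weights, GLG1 from 24 to 48 h in 2% glucose (0.0269), GDB1 from 18 to 24 h in 0.5% glucose (0.0379) and the change of GLG1 from 18 to 24 h (0.0429). The cause of these changes was not tested.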
